A study of Homo sapiens with 34 samples.

Results

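MKNK1 and MKNK2, the genes of the kinases MNK1 and MNK2, were followed here at the level of the gene and of each annotated splicing event. Members were found by gene name, which gave 2 of the 29324 genes with an intron event in the deposited event table. Of its 721536 splicing events, 58 belonged to MKNK1 and 51 to MKNK2. The pair was chosen on values of these same libraries, levels and junction reads, and which of these prompted the choice is not recorded. Adjusted p-values below therefore describe the size of a difference against the spread between replicates and are not independent evidence.

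The study measured RNA of hTERT RPE-1 cells, a telomerase-immortalised human retinal pigment epithelial line, in 34 stranded, ribosomal-RNA-depleted libraries forming 17 groups of biological duplicates. Each group had received a lentiviral hybrid guide RNA (hgRNA), which joins a Cas9 guide and a Cas12a guide so that the DNA between both target sites can be removed. All groups, controls included, were selected with puromycin at 20 µg/ml for 72 hours and grown for 4 more days before harvest. Controls carried 1 of 2 hgRNAs aimed at intergenic sites (4 libraries). Intronic deletions were made in DDX5 (2 hgRNAs), FNBP4 (hgRNAs 1 and 2, here the FNBP4 intron deletion) and HNRNPD (1 hgRNA). Deletions spanning an exon with a premature termination codon (PTC exon) were made in DDX17, in HDAC7 and in FNBP4 (hgRNAs 3 and 4, here the FNBP4 PTC exon deletion), each with 2 hgRNAs. The 2 HDAC7 deletion hgRNAs are listed with the same Cas9 guide and differ in the Cas12a guide. The sample titles call the deletions of all these sets intronic. Knockouts of DDX5, DDX17, FNBP4 and HDAC7 are each labelled with an exonic Cas9 guide and an intergenic Cas12a guide. For HDAC7 the listed sequences do not bear this out. For DDX17 the listed Cas9 guide was found in no annotated transcript, a search without genome sequence (both given with the checks and sequences that follow). The edited cells were transduced populations selected for the guide and not isolated clones as far as the labels say, so the share of edited alleles is not known. In such bulk RNA, a change in every cell and a larger change in fewer cells cannot be told apart. The knockouts and the HNRNPD deletion each had 1 hgRNA. For these sets, an effect of the targeted gene and an effect of that hgRNA cannot be told apart either.

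MNK1 and MNK2 are serine/threonine kinases that ERK and p38 MAP kinases switch on. They dock on the scaffold eIF4G and phosphorylate the cap-binding protein eIF4E, and they act on RNA-binding proteins and other substrates. MNK1 is the more inducible of the pair, whereas MNK2 is known for higher basal activity. Human MKNK2 ends in alternative last exons. The proximal one gives MNK2a, whose tail carries a docking motif for MAP kinases, and the distal one gives MNK2b, whose shorter tail lacks it. The splicing factor SRSF1 has been reported to favour MNK2b.

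Total spliced reads ran from 12353936 to 20233610 per library. The library of DDX17 deletion hgRNA 1 replicate 2 was the shallowest and had the highest exon-intron share of junction reads, 5.90%. Replicate 1 of each of the 4 knockouts had shares of only 1.91% to 2.38%, against 3.66% to 5.90% elsewhere, and replicate 2 of the same knockouts lay between 3.76% and 4.48%. Deviations of same-numbered knockout libraries moved together (r from 0.37 to 0.50 in 6 of 6 pairs of knockouts, across genes), so the number was also fitted as a block within the knockouts. Such deviations were not limited to the knockouts, since over all pairs of groups r reached 0.66. The targeted gene was lower than in every control library in both DDX5 knockout libraries (DDX5 at 133 and 167 CPM, spliced counts-per-million, against 521 to 586) and in both DDX17 knockout libraries (DDX17 at 285 and 330 CPM against 396 to 433). In the FNBP4 knockout, FNBP4 stood at 22.3 and 44.3 CPM against 34.1 to 44.4 in controls. It was also below every control in replicate 1 of the DDX17 knockout (25.99 CPM), of the set labelled HDAC7 knockout (22.4 CPM) and of the DDX5 knockout (29.8 CPM), and stood at 49.8, 50.4 and 40.4 CPM in their replicate 2. HDAC7 stood at 179 and 180 CPM in the set labelled HDAC7 knockout against 176 to 244 in controls. The Cas9 guide listed for that set is the one listed for the FNBP4 knockout and was found in FNBP4 transcripts, not in HDAC7 transcripts. Its Cas12a guide is listed with that same sequence, so this set is named by its label only. The Cas9 guide listed for DDX17 deletion hgRNA 1 was found in transcripts of PFN1 and not of DDX17, whereas that of hgRNA 2 was found in DDX17 transcripts. In the DDX5 deletion, DDX5 stood at 389 to 420 CPM, below every control. In their own deletions, DDX17 (406 to 448 CPM) and HDAC7 (142 to 244 CPM) overlapped controls. HNRNPD stood at 247 and 318 CPM in its deletion against 207 to 253 in controls. FNBP4 stood at 46.8 to 51.8 CPM in the FNBP4 intron deletion, above every control. Among pigment epithelium markers, KRT8 (460 to 982 CPM) and MITF (9.14 to 24.1 CPM) were present in every library, whereas TYR had no spliced read in any of the 34 and RPE65 had none in 13.

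MKNK2 (ENSG00000099875.16 in the authors' table) lies on the minus strand of chromosome 19 (GRCh38, chr19:2037465-2051244) and MKNK1 (ENSG00000079277.22) on the minus strand of chromosome 1 (chr1:46557408-46616843). GENCODE v29 lists 13 transcripts of MKNK2 and 31 of MKNK1. The table's introns matched this annotation in 192907 of 192950 cases, including all 13 of MKNK1 and all 13 of MKNK2. The sequences that the largest splicing difference turned on are the coding ends of the 2 MKNK2 last exons. Lower case marks the shared 44-base exon that precedes them (chr19:2040134-2040177), and capitals mark the coding part of the last exon up to the stop codon, 5′ to 3′ on the transcribed strand.
MKNK2-201, proximal last exon, MNK2a (capitals chr19:2039616-2039856): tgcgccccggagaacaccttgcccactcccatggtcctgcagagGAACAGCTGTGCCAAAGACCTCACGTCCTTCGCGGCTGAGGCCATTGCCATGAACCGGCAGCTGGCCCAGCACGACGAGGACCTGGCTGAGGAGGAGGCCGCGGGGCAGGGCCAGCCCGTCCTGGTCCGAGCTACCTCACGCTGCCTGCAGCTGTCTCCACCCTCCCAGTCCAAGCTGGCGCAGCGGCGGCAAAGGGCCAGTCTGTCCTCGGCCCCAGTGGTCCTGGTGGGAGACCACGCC
MKNK2-202, distal last exon, MNK2b (capitals chr19:2037742-2037829): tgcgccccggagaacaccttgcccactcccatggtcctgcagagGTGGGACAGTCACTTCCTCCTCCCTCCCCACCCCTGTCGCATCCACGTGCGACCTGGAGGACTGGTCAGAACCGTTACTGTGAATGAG
The proximal exon adds 241 coding bases and the distal one adds 88, so that MKNK2-201 encodes 465 codons and MKNK2-202 encodes 414. The proximal exon is annotated with 2375 bases and runs through the start of the distal exon. The event that counts its reads below is listed at chr19:2039631-2039850, with 220 bases. Its listed acceptor end therefore lies inside the capitals and not at their first base. Which acceptor the counted reads used was not tested. Only transcript sequences were searched for guides, so a guide lying partly in an intron could be missed. In the DDX17 knockout, the set in which the choice of last exon differed most from controls, the labels give this Cas9 guide. It was found in no GENCODE v29 transcript on either strand.
DDX17 knockout Cas9 guide: taggtggtcgttctcgttac
In MKNK1, the exon with the widest range of inclusion between groups has 74 bases (chr1:46574947-46575020). It is a coding exon in 7 annotated transcripts and is spliced over in 3.
MKNK1 74-base exon: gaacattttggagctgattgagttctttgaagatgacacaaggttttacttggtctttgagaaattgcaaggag

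MKNK2 was the more abundant of the pair. In the authors' deposited table, controls held MKNK2 at 40.05 RPKM and MKNK1 at 7.14 RPKM, values that are per length of the gene. The ratio of these deposited levels was 5.61 in controls. Among the edited groups it ran from 2.86 in DDX5 deletion hgRNA 1 to 9.32 in FNBP4 PTC exon deletion hgRNA 4. These ratios rest on deposited levels, which did not always move with the deposited fold changes. From the spliced reads, MKNK1 was measured with 137 to 325 reads per library and MKNK2 with 1475 to 3539, so single-library values of MKNK1 carry the larger counting error. Across the 34 libraries MKNK1 spanned 7.73 to 19.01 CPM, with a median of 13.5, and MKNK2 spanned 93.4 to 213.5 CPM, with a median of 118.1.

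**Figure D1:**
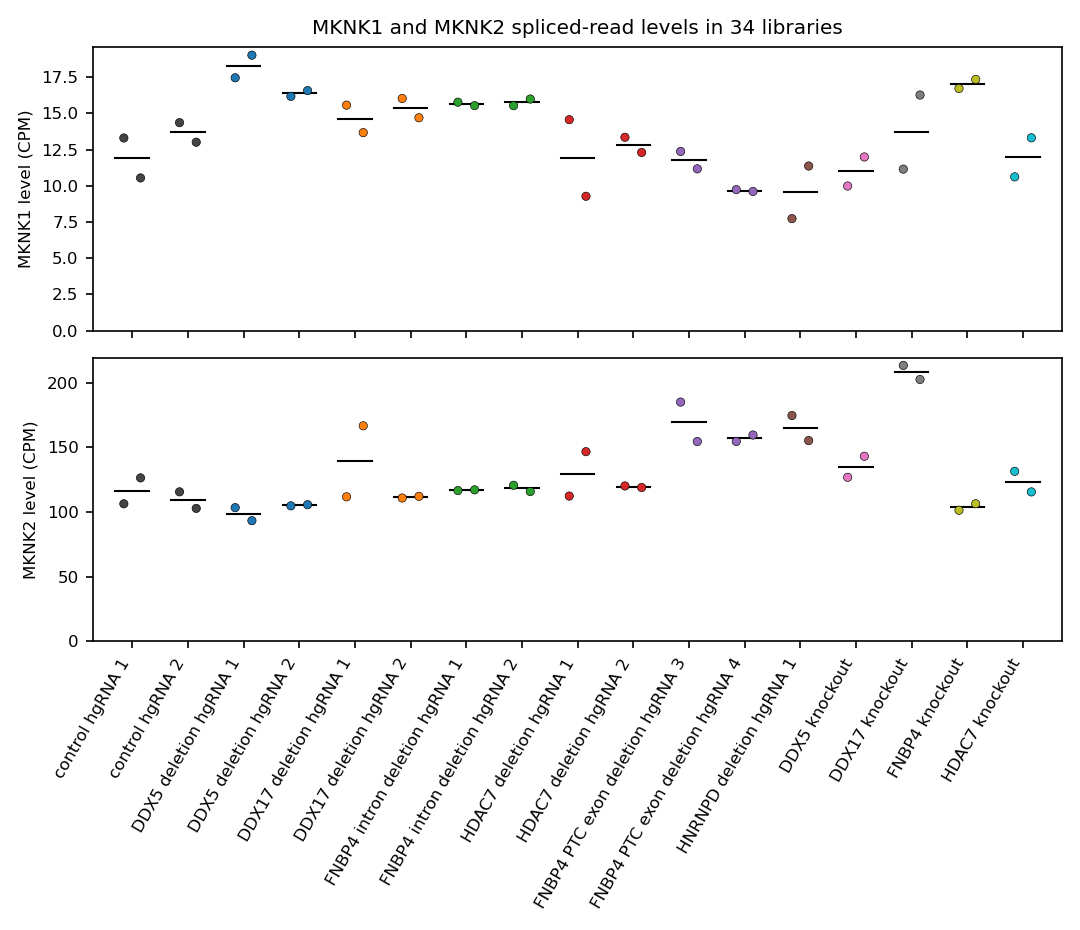
Levels of MKNK1 (top) and MKNK2 (bottom) in counts-per-million (CPM, linear axes from 0) for each of the 17 groups on the horizontal axis. Each point is 1 of 34 libraries, the bar is the group mean of 2 libraries, and colours mark the edited sets. The DDX17 knockout libraries are the highest for MKNK2, and the DDX5 deletion hgRNA 1 libraries are the highest for MKNK1.

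MKNK2 rose in 3 of the 10 edited sets, and the DDX17 knockout showed the largest difference. MKNK2 stood at 213.5 and 203 CPM in the DDX17 knockout libraries, against 103, 106, 116 and 126 CPM in the 4 control libraries. Both knockout libraries lay above every other library of the series. The difference from controls was 0.89 on the log2 scale (SE 0.13, limma adjusted p = 0.000575), a 1.85-fold higher level. MKNK1 in the same libraries stood at 11.1 and 16.3 CPM against 10.5 to 14.4 CPM in controls, and its difference of 0.09 (SE 0.17, limma adjusted p = 0.855) did not pass the test. Of all 12081 genes tested in this comparison, 1.76% were called in either direction.

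In the FNBP4 PTC exon deletion, MKNK2 stood at 185 and 155 CPM with hgRNA 3 and at 155 and 160 CPM with hgRNA 4. All 4 libraries lay above the 4 controls. The difference was 0.54 (SE 0.11, limma adjusted p = 0.000857), or 1.45-fold. MKNK1 stood at 12.4 and 11.2 CPM with hgRNA 3 and at 9.73 and 9.61 CPM with hgRNA 4, which overlapped the controls. Its difference of -0.26 (SE 0.14, limma adjusted p = 0.184) did not pass. This comparison called 26.9% of all genes, the highest share of the 10 comparisons with controls.

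With the HNRNPD deletion, MKNK2 stood at 175 and 155 CPM, both above every control library. The difference was 0.55 (SE 0.13, limma adjusted p = 0.00885), where 8.87% of genes were called. This call was lost without HNRNPD deletion hgRNA 1 replicate 1 (0.47, limma adjusted p = 0.171), against control hgRNA 1 alone (0.51, adjusted p = 0.0630) and after removal of a trend with GC content and length (0.36, adjusted p = 0.0656). MKNK1 in the same set stood at 7.73 and 11.4 CPM, and its difference of -0.45 (SE 0.18, limma adjusted p = 0.135) did not pass.

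MKNK1 passed the threshold in 1 set, the DDX5 deletion. It stood at 17.4 and 19.01 CPM with hgRNA 1 and at 16.2 and 16.6 CPM with hgRNA 2, all above the controls. The difference was 0.44 (SE 0.14, limma adjusted p = 0.0304) in a comparison that called 16.9% of genes. Over the 8 fits that each left out 1 library, the difference ran from 0.35 to 0.52 and the adjusted p from 0.0233 to 0.175, and the call held only in the fit without control hgRNA 1 replicate 1. Against control hgRNA 2 alone it was 0.34 (adjusted p = 0.287). MKNK2 stood between 93.4 and 106 CPM in the DDX5 deletion, overlapping the controls (-0.14, SE 0.11, limma adjusted p = 0.387).

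Neither member passed in the other 6 sets, which called between 1.90% (HDAC7 deletion) and 9.99% (DDX5 knockout) of all genes. The DDX17 deletion called 4.98%, the FNBP4 intron deletion 3.53%, the FNBP4 knockout 8.19% and the set labelled HDAC7 knockout 6.50%. MKNK1 in the FNBP4 knockout stood at 16.7 and 17.3 CPM, above every control, with a difference of 0.42 (SE 0.17, limma adjusted p = 0.128). In the FNBP4 intron deletion its 4 libraries lay between 15.5 and 15.98 CPM, also above every control (0.30, SE 0.14, limma adjusted p = 0.271). MKNK1 in the DDX17 deletion had its lowest library at 13.7 CPM (0.24, adjusted p = 0.399). MKNK2 in the DDX5 knockout stood at 127 and 143 CPM, just above the highest control of 126, with a difference of 0.26 (SE 0.13, limma adjusted p = 0.210). With a trend with GC content and length removed, that difference was 0.57 (adjusted p = 0.00366), and that of the set labelled HDAC7 knockout went from 0.13 (adjusted p = 0.581) to 0.45 (adjusted p = 0.0217). MKNK2 in the DDX17 deletion stood at 112 and 167 CPM with hgRNA 1 and at 111 and 112 CPM with hgRNA 2. The high value belongs to the shallow library named above, without which the set's difference of 0.13 (adjusted p = 0.572) was -0.015. In the remaining sets MKNK2 overlapped the controls, with 112 to 147 CPM in the HDAC7 deletion, 116 to 121 CPM in the FNBP4 intron deletion, 101 and 106 CPM in the FNBP4 knockout and 132 and 116 CPM in the set labelled HDAC7 knockout. MKNK1 also overlapped them in the HDAC7 deletion (9.27 to 14.6 CPM), the DDX5 knockout (9.98 and 12.0 CPM) and the set labelled HDAC7 knockout (10.6 and 13.3 CPM).

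**Figure D2:**
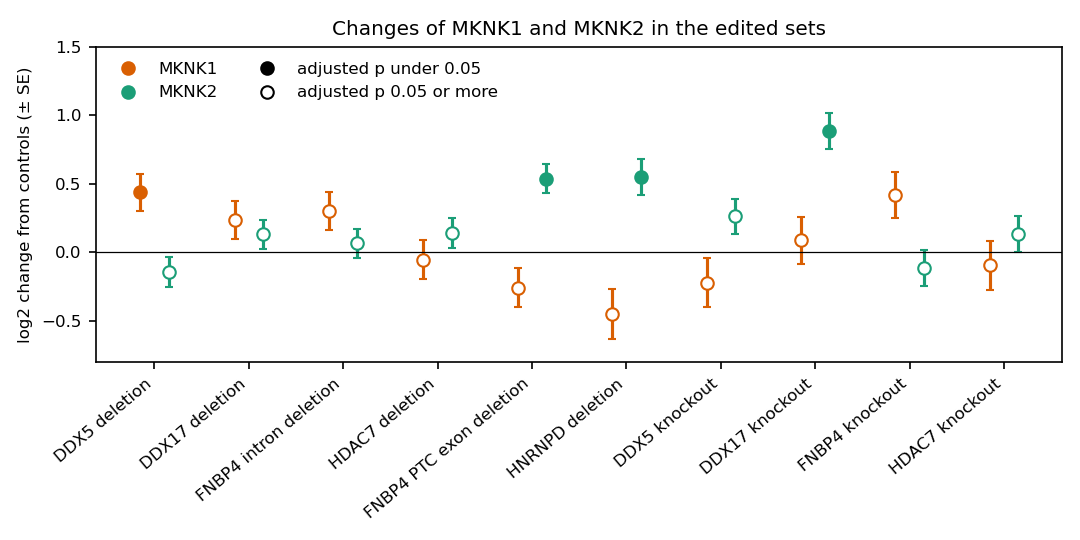
Log2 difference of MKNK1 (orange) and MKNK2 (green) from the 4 control libraries in the 10 edited sets on the horizontal axis, with the standard error as bars. Filled points have a limma adjusted p under 0.05: MKNK1 in the DDX5 deletion (0.44) and MKNK2 in the FNBP4 PTC exon deletion (0.54), the HNRNPD deletion (0.55) and the DDX17 knockout (0.89).

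Ordered by group mean, MKNK2 ran from the DDX17 knockout at 208 CPM, through FNBP4 PTC exon deletion hgRNA 3 at 169.9 CPM, the HNRNPD deletion at 165 CPM and FNBP4 PTC exon deletion hgRNA 4 at 157 CPM, to DDX5 deletion hgRNA 1 at 98.4 CPM. Of the 16 gaps between neighbours, 2 exceeded the pooled SD between replicates of 0.15 on the log2 scale. These were the gap below the DDX17 knockout (0.30) and the gap below FNBP4 PTC exon deletion hgRNA 4 (0.20). For MKNK1 the order ran from DDX5 deletion hgRNA 1 at 18.2 CPM to the HNRNPD deletion at 9.55 CPM, and none of the 16 gaps exceeded the pooled SD of 0.21. Over the 17 group means, log2 levels of MKNK1 and MKNK2 had a Pearson r of -0.63, given as a description of groups that share a cell line and 1 normalisation.

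The deposited fold changes of the authors' table, made per hgRNA with their own fit, gave MKNK2 a false discovery rate under 0.05 in 2 of 15 hgRNAs and MKNK1 in 0 of 15. The authors' deposited table lists MKNK2 at 73.75 RPKM in the DDX17 knockout, with a log2 fold change of 0.60 and a false discovery rate of 0.000760. For the HNRNPD deletion the authors' deposited table gives 57.68 RPKM, 0.61 and 0.000134. For FNBP4 PTC exon deletion hgRNAs 3 and 4, the authors' deposited table gives log2 fold changes of 0.26 and 0.31 with false discovery rates of 0.165 and 0.131. The fit to spliced reads gave 0.89 in the DDX17 knockout, 0.55 in the HNRNPD deletion, and 0.59 and 0.48 for FNBP4 hgRNAs 3 and 4. In the set labelled HDAC7 knockout, MKNK2 is listed at 46.58 RPKM against 40.05 in controls, but with a log2 fold change of -0.088. Why deposited levels and fold changes differ was not tested. The deposited estimate per hgRNA for MKNK1 in the DDX5 deletion was 0.46 (false discovery rate 0.109) and 0.39 (0.242) in the authors' deposited table.

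The choice between the MKNK2 last exons differed in the DDX17 knockout more than any other exon or splice site of either gene. Spliced reads leaving the shared 44-base exon were counted into the proximal acceptor as listed for the event (MNK2a) and into the distal acceptor (MNK2b). In the control libraries the reads were 58 proximal and 41 distal, 148 and 85, 101 and 71, and 62 and 26. The proximal share was thus 58.6%, 63.5%, 58.7% and 70.5%, with a mean of 62.8% ± 5.58 (SD, n = 4). In the DDX17 knockout the reads were 43 proximal and 152 distal in replicate 1, and 32 proximal and 151 distal in replicate 2. The proximal share was 22.1% (95% Wilson interval 16.8% to 28.4%) and 17.5% (12.7% to 23.6%), intervals that cover counting error only. The other 32 libraries lay between 41.3% and 70.6%, with a median of 59.5%, and none overlapped the DDX17 knockout.

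In the fit over all events, which uses the table's own inclusion and exclusion reads, the log2 ratio of inclusion to exclusion of the proximal exon was lower by -2.74 (SE 0.38, limma adjusted p = 0.00559) in the DDX17 knockout. The table's percentage differed by -35.0 points there, less than the -43.1 points of the direct share. The table treats the exon as a cassette and so averages in a junction from the proximal to the distal exon, which had 1 read in all 34 libraries. This was 1 of 20 events called among 280995 tested, or 0.00712%. It was the only event of either gene called in any of the 10 comparisons with controls, by limma with an adjusted p under 0.05 and at least 10 points. Without DDX17 knockout replicate 2 the difference was -2.54 with an adjusted p of 0.0570, and with only the libraries of this comparison in the fit the adjusted p was 0.346 at the same size.

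Expressed as RPM (reads scaled to the library's spliced total), the distal junction was higher and the proximal junction lower in the DDX17 knockout, given as a description because junctions were not tested singly. The distal junction stood at 9.52 and 8.64 RPM, against 2.15, 5.12, 3.95 and 1.40 in controls, a ratio of means of 2.88. Those were the highest distal values of the series, where the next library reached 5.53. The proximal junction stood at 2.69 and 1.83 RPM, against 3.05, 8.91, 5.62 and 3.35 in controls, a ratio of 0.432. Among the other 32 libraries, 4 had a proximal value below 2.69.

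**Figure D3:**
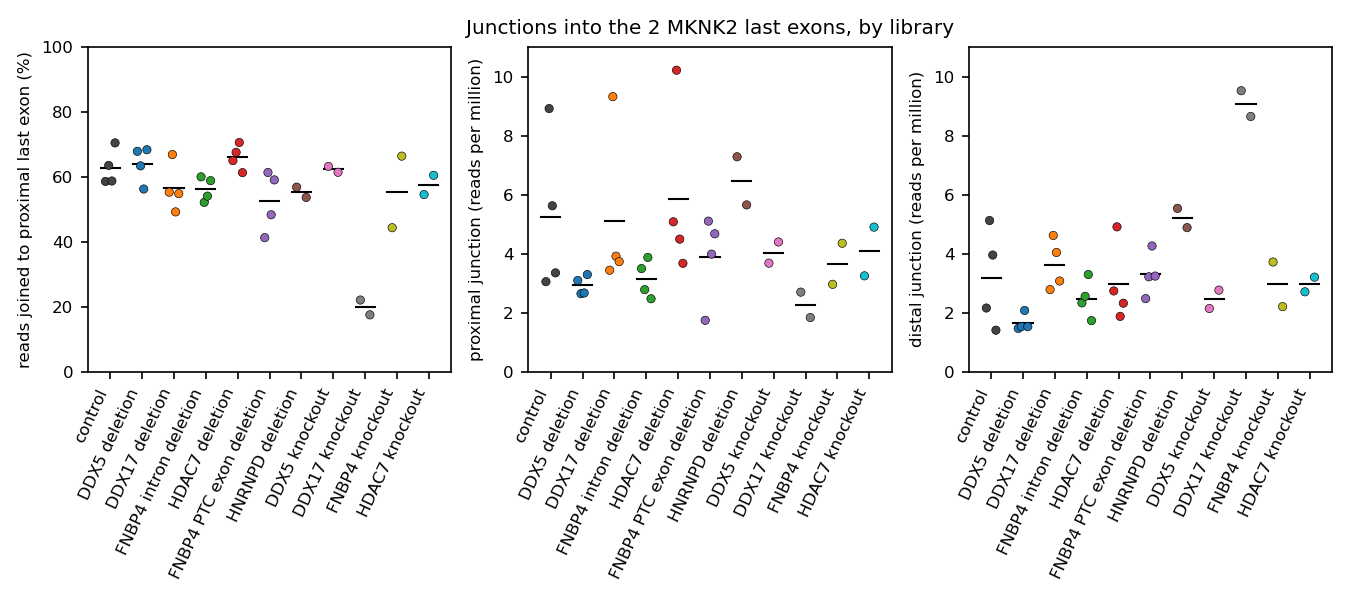
Share of reads joined to the proximal MKNK2 last exon in percent (left), RPM into the proximal last exon (middle) and into the distal last exon (right), for controls and the 10 edited sets on the horizontal axis. Each point is 1 library and each bar the mean of the set. The 2 DDX17 knockout libraries, at 22.1% and 17.5%, lie below all others on the left and above all others on the right.

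Outside the DDX17 knockout the last exon choice varied within a narrower band. Set means of the proximal share were 64.0% in the DDX5 deletion, 66.1% in the HDAC7 deletion, 62.3% in the DDX5 knockout, 57.5% in the set labelled HDAC7 knockout, 56.6% in the DDX17 deletion and 56.3% in the FNBP4 intron deletion. The FNBP4 knockout gave 44.3% and 66.4%, a pair that differed by more than most sets did from controls. In the FNBP4 PTC exon deletion the 4 libraries stood at 41.3%, 61.3%, 48.3% and 59.1%, and in the HNRNPD deletion at 56.8% and 53.7%. Both HNRNPD deletion libraries lay just below the lowest control, but the difference in the event fit (-7.80 points, limma adjusted p = 0.906) did not pass. Of 17 group means, the gap between the DDX17 knockout (19.8%) and the next group (51.3%) was 4.40 times the pooled SD of 7.17 points, and none of the other 15 gaps reached the pooled SD. The DDX17 deletion and the DDX17 knockout differed in this event (2.37 on the log2 ratio, SE 0.38, limma adjusted p = 0.0208), where 0.00882% of events were called. The event did not pass in the other 4 contrasts between edits of 1 gene (limma adjusted p from 0.852 to 0.981), which called 0.0267% (FNBP4 PTC exon against intron deletion), 0.0884% (FNBP4 PTC exon deletion against knockout), 0.00541% (DDX5) and 0.00160% (HDAC7) of events. Against the other 3 knockouts, a comparison chosen after the data were seen, the DDX17 knockout differed by -2.48 (SE 0.36, limma adjusted p = 0.00879, 0.00735% of events called).

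A related event treats the stretch between the shared exon and the distal acceptor as a retained intron (chr19:2037830-2040133). Its reads across the distal acceptor, 1967 in all libraries, lie inside the annotated proximal exon, whereas only 58 crossed the upstream boundary, so its percentage counts mostly reads of that annotated exon. It stood at 18.5% and 27.1% in the DDX17 knockout against 50.0% to 66.7% in controls (-35.3 points, limma adjusted p = 0.0545, or 0.0335 with the replicate block within the knockouts). It also differed from controls by 10 points or more in the DDX5 deletion (11.8), the DDX17 deletion (-11.5), the FNBP4 knockout (-10.1) and the set labelled HDAC7 knockout (-10.3), none of which passed the test. The event shares reads with the last exon junction and is no second measurement.

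Because MKNK2's level was summed over its introns, each of the 13 was also set against controls (set means, with no test per intron). In the DDX17 knockout all 13 were higher, from 0.24 at intron 12 to 1.46 at intron 13, with a median of 0.86. Intron 13 spans the distal last exon junction, but its own event lists fewer reads there than the last exon event. In the DDX17 knockout these were 75 and 74 reads against 152 and 151. In controls they were 19, 45, 35 and 13 against 41, 85, 71 and 26. Without intron 13, the gene's difference was 0.88 (SE 0.13, limma adjusted p = 0.000575), a fit added after the data were seen. In the HNRNPD deletion all 13 were also higher, from 0.33 to 0.92. In the FNBP4 PTC exon deletion, introns 1 and 2 were lower than in controls by -0.58 and -0.74, introns 5 to 8 were higher by 0.75 to 0.97, and intron 12 was at -0.10, so that 10 of 13 were higher and 3 lower. The DDX5 knockout had intron 1 at -1.03 and intron 6 at 0.62. Intron 1 was also lower than in controls in the DDX5 deletion (-1.65), the set labelled HDAC7 knockout (-1.52), the FNBP4 intron deletion (-1.10) and the FNBP4 knockout (-1.03), sets in which MKNK2 did not pass the test. Position along the transcript moved with the value in these sets, and its part in the gene's difference was not tested.

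**Figure D4:**
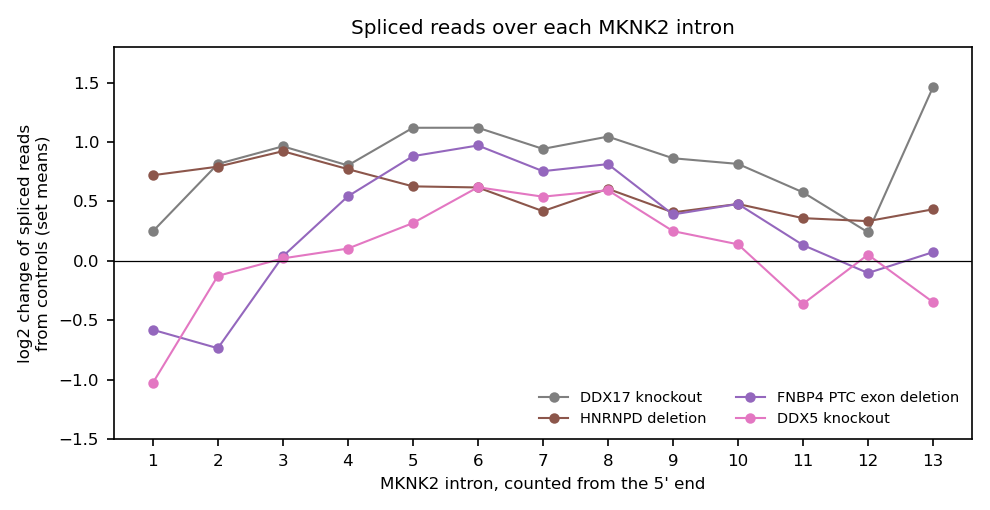
Log2 difference of mean spliced RPM from controls for each MKNK2 intron, numbered from the 5′ end on the horizontal axis, in 4 edited sets. The DDX17 knockout and the HNRNPD deletion are above 0 at all 13 introns, whereas the FNBP4 PTC exon deletion starts at -0.58 and peaks at 0.97.

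The MKNK1 exon of 74 bases was mostly included. Its inclusion in the control libraries was 84.7%, 75.1%, 90.2% and 78.1%, a mean of 82.0% ± 6.76 (SD, n = 4), on 43 to 112 reads. In the DDX5 knockout it was 69.9% and 58.5%, below every control library. The difference of -17.8 points (log2 ratio -1.35, SE 0.45, limma adjusted p = 0.408) did not pass the threshold over all events, and it was the widest difference of an MKNK1 event in the 10 comparisons. The FNBP4 PTC exon deletion gave 80.1%, 71.7%, 58.7% and 81.0%, overlapping controls. At the other end stood the set labelled HDAC7 knockout with 92.0% and 89.6%, the DDX17 knockout with 87.4% and 88.9%, and the FNBP4 intron deletion with 82.3% to 91.7%. None of these passed the test. The exon's length is not a multiple of 3, so its omission shifts the reading frame of the exons that follow.

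Of the MKNK2 introns, the 135-base intron 3 (chr19:2046469-2046603) was retained in about as many reads as it was spliced. Its retention was 46.8% ± 3.88 (SD, n = 4) in controls, from 42.2% to 51.7%. In the DDX17 deletion it was 53.4% to 59.2%, above every control, but the difference of 9.19 points did not pass (limma adjusted p = 0.593). Set means elsewhere ran from 42.2% in the HNRNPD deletion to 54.3% in the DDX5 deletion, with overlap of single libraries. Intron 4, of 83 bases, was retained at 4.68% ± 2.80 (SD, n = 4) in controls, and its set means ran from 1.21% to 8.62%. In MKNK1 the 2779-base intron downstream of the 74-base exon was retained at 8.62% ± 4.54 (SD, n = 4) in controls. Its 2 HNRNPD deletion libraries stood at 32.1% and 7.41%, so that the higher mean of 19.7% rested on 1 library.

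**Figure D5:**
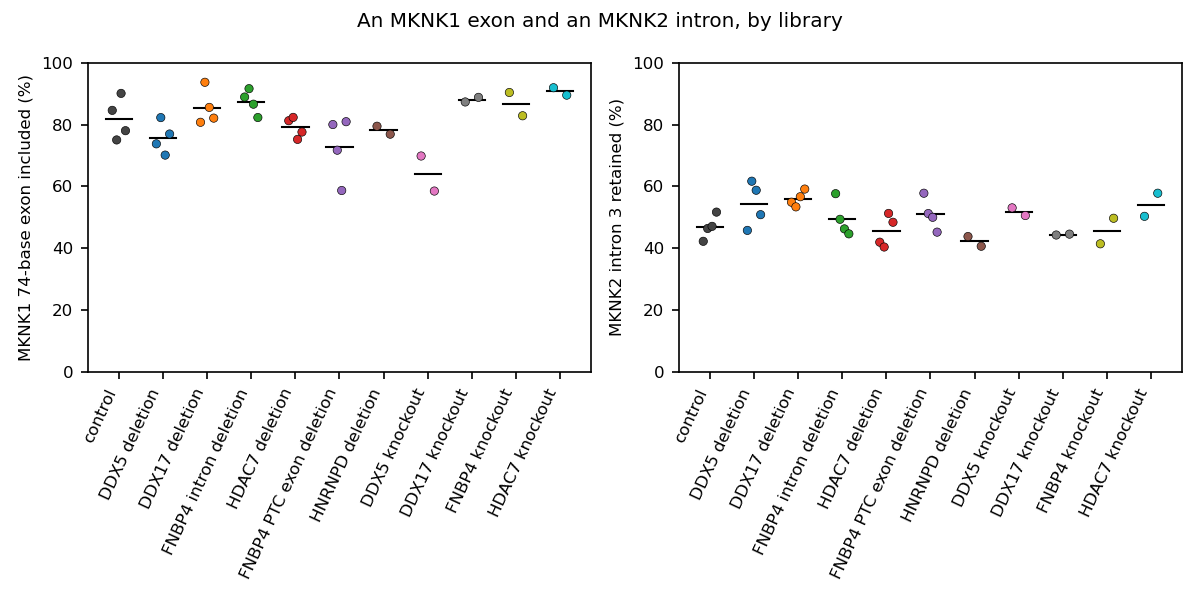
Inclusion of the MKNK1 74-base exon (left) and retention of MKNK2 intron 3, of 135 bases (right) in percent, for controls and the 10 edited sets on the horizontal axis. Each point is 1 library and each bar the mean of the set. The DDX5 knockout libraries, at 69.9% and 58.5%, lie below the controls on the left, and most sets overlap controls on the right.

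Few other MKNK1 events had enough reads to be described. At least 20 reads in all 34 libraries were reached by 7 of 58 MKNK1 events and 48 of 51 MKNK2 events, and 17 and 51 respectively were tested in at least 1 comparison. Of 139 tests of MKNK1 events in the 10 comparisons limma called 0, with 0 to 6 per comparison at an unadjusted p under 0.05. Of 504 tests of MKNK2 events it called 1, with 0 to 23 per comparison at that level. The 23 were of 51 MKNK2 events tested in the DDX17 knockout, where the reads of the whole gene were also higher. Over all events, 15277 of 280995 reached that level there. The 6 were of 17 MKNK1 events tested in the DDX5 deletion, where 30402 of all 280947 events reached it. With a pseudocount of 1, the log2 ratio of an event near 0% or 100% also moves with the number of reads. In the FNBP4 PTC exon deletion, an MKNK2 exon of 80 bases differed by 0.92 in log2 ratio at 0 points. In the DDX17 knockout, 2 of the 51 MKNK2 events differed by 10 points or more. How many of the 23 reflect read number and not splicing was not tested. In each gene, 2 events differed from controls by 10 points or more anywhere. Beyond those, the exons with the widest range of group means were an MKNK1 exon of 105 bases (8.20 points) and an MKNK1 exon of 80 bases (4.47 points). In MKNK2 they were the shared 44-base exon (5.50 points), an exon of 88 bases (2.22 points) and an exon of 80 bases (1.51 points). An alternative MKNK1 acceptor varied by 3.78 points. The event table holds no pair of last exon junctions for MKNK1. Over all events the share called was 0.0206% in the DDX5 deletion, 0.000412% in the DDX17 deletion, 0.00% in the FNBP4 intron and HDAC7 deletions, and 0.0105% in the FNBP4 PTC exon deletion. It was 0.000349% in the HNRNPD deletion, 0.00108% in the DDX5 knockout, 0.00660% in the FNBP4 knockout and 0.00483% in the set labelled HDAC7 knockout. At an unadjusted p under 0.05, limma's counts over all events were 15246 of 284947 in the FNBP4 intron deletion and 15271 of 261452 in the HDAC7 deletion.

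Where 1 gene was edited in more than 1 way, the edits were also set against each other. MKNK2 was lower in the DDX17 deletion than in the DDX17 knockout by -0.76 (SE 0.13, limma adjusted p = 0.000790, 8.87% of genes called). DDX17 itself stood at 406 to 448 CPM in that deletion and at 285 and 330 CPM in the knockout, against 396 to 433 CPM in controls. Between the FNBP4 PTC exon deletion and the FNBP4 intron deletion, which share the Cas9 guide of 1 hgRNA each, both members differed, in opposite directions. MKNK1 was lower by -0.56 (SE 0.14, limma adjusted p = 0.00416) and MKNK2 higher by 0.47 (SE 0.11, limma adjusted p = 0.00171), with no overlap of libraries in either and 30.7% of genes called. Against the FNBP4 knockout, the FNBP4 PTC exon deletion had MKNK1 lower by -0.68 (SE 0.17, limma adjusted p = 0.00429) and MKNK2 higher by 0.65 (SE 0.13, limma adjusted p = 0.000670), also with 30.7% called. FNBP4 itself was at 106 to 158 CPM in the PTC exon deletion, above the 34.1 to 44.4 CPM of controls.

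MKNK1 was higher in the DDX5 deletion than in the DDX5 knockout by 0.66 (SE 0.18, limma adjusted p = 0.0308), where 4.40% of genes were called. MKNK2 differed by -0.41 (SE 0.13, limma adjusted p = 0.0759) and did not pass, whereas with the replicate block within the knockouts it did (-0.41, adjusted p = 0.0487). Between the HDAC7 deletion and the set labelled HDAC7 knockout, which called 6.02% of genes, MKNK1 differed by 0.04 and MKNK2 by 0.01, neither past the test (limma adjusted p = 0.915 and 0.984). Against the other 3 knockouts, a contrast chosen after the data were seen, the DDX17 knockout had MKNK2 higher by 0.79 (SE 0.12, limma adjusted p = 0.000695, 2.06% of genes called) and MKNK1 at 0.05 (adjusted p = 0.960). Among libraries numbered 1, MKNK2 stood at 213.5 CPM in the DDX17 knockout and at 101 to 132 CPM in the other 3, and among those numbered 2 at 203 CPM and at 106 to 143 CPM. The proximal last exon share was 22.1% against 44.3% to 63.2% in libraries numbered 1, and 17.5% against 60.5% to 66.4% in those numbered 2. MKNK1 was higher in the library numbered 2 in each of the 4 knockouts.

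Genes around the kinases were taken from a list of 42. It held genes grouped with the cap-binding complex and its inhibitors, not all of them subunits of that complex, and upstream kinases. It also held MNK substrates, other MAPK-activated kinases, mRNAs whose translation is sensitive to eIF4E, and SRSF1. Of these, 41 were tested. The FNBP4 PTC exon deletion called 11 higher and 7 lower, where 13.9% of all genes were called higher and 13% lower, and the list median was 0.04 against 0.01 over all genes. In the DDX5 deletion 6 were higher and 5 lower, against 7.23% and 9.68% of all genes. The DDX17 deletion had 4 and 1 (2.27% and 2.72% of all genes), the FNBP4 intron deletion 1 and 1 (1.27% and 2.25%) and the HNRNPD deletion 3 and 3 (4.55% and 4.32%). The HDAC7 deletion had 0 and 0 (1.04% and 0.861%). Of the knockouts, that of DDX5 had 5 higher and 0 lower (5.89% and 4.11% of all genes), the set labelled HDAC7 knockout 5 and 0 (3.43% and 3.07%) and that of FNBP4 4 and 2 (4.54% and 3.66%). In the DDX17 knockout, where MKNK2 differed most, SPRY2 was the only list member called, where 0.762% of all genes were called higher and 1.00% lower. SPRY2, a feedback inhibitor of receptor tyrosine kinase signalling and a reported MNK substrate, stood at 40.9 ± 2.68 CPM (SD, n = 2) against 25.9 ± 0.83 CPM (SD, n = 4), a difference of 0.66 (SE 0.11, limma adjusted p = 0.00146).

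SRSF1, the reported regulator of MKNK2 splicing, did not pass in any of the 10 sets, and its difference in the DDX17 knockout was 0.30 (SE 0.11, limma adjusted p = 0.154). In the FNBP4 PTC exon deletion, genes that the list grouped with the cap-binding complex and its inhibitors differed as follows. EIF4A2, the helicase that unwinds mRNA leaders, was higher by 0.48, EIF4B, its cofactor, by 0.38 and EIF4G2 by 0.25. EIF4EBP1, an inhibitor of eIF4E, was lower by -0.68. Among upstream kinases of the same set, MAP2K3 (a p38 activator) was lower by -0.80 and MAP2K1 (an ERK activator) by -0.24, while MAP2K4 was higher by 0.30 and MAP2K6, at only 1.67 CPM, by 2.21. Among MNK substrates, HNRNPA1 was higher by 0.45, SPRY2 by 0.55 and PLA2G4A by 0.81. CCND1, which encodes cyclin D1, was lower by -1.34 and MYC by -1.17, whereas VEGFA was higher by 0.54 and ODC1, the polyamine synthesis enzyme, lower by -0.44. Of the other MAPK-activated kinases, RPS6KA2 was higher by 0.45 and RPS6KA3 by 0.45, and RPS6KA4 was lower by -0.73. All passed the test in that set. MAP2K3 was the list member called most often, in 7 of 10 sets, 5 times higher and 2 times lower, followed by VEGFA in 6, ODC1 and SPRY2 in 5 each and EIF4A2 in 4.

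By the Pearson correlation of log2 group means over the 17 groups, among genes at log2 CPM of 4 or more, the genes most like MKNK1 were NOP14 (0.92), NOC3L (0.92), LAS1L (0.90) and POLR1A (0.90). The most opposite were GNAS (-0.94) and SEMA3F (-0.93). For MKNK2 the most alike were ZNF395 (0.84), BAG6 (0.83), FMNL3 (0.82) and TPT1 (0.82), and the most opposite were AKTIP (-0.87) and PTPN1 (-0.85). These are the extremes of 6752 and 6751 genes compared and are given as a description.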

How the data were processed

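The samples were 34 RPE-1 libraries of 17 hgRNA groups, grouped by their labels. The event table gives, per the file headers, a percent inclusion and a quality string holding junction reads for every event and library, as deposited by the authors. The expression table holds RPKM, log2 fold changes and a false discovery rate (an adjusted p-value) deposited by the authors per hgRNA, with replicates combined. Salmon 1.10 and edgeR are named in the submitters' processing notes. Neither aligner nor genome build nor annotation was given in the sources used here. The event table's columns of 2 further libraries match no sample and were not used.

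No gene counts per library were used. Spliced reads were summed over the introns of each gene, which favours genes with many spliced introns. Genes with at least 10 reads at the median depth in 2 libraries and 15 in all were kept (12081). They were scaled by trimmed mean of M-values, computed in R 4.3.3, and fitted with limma 3.58.1 (voom) over all 17 groups with 17 residual degrees of freedom. Comparisons took the mean of a set's hgRNAs minus the mean of both control hgRNAs, with Benjamini-Hochberg adjustment over all genes and a threshold of 0.05. Events needed 20 reads in every library compared, used log2 ratios with a pseudocount of 1, and needed an adjusted p under 0.05 and 10 points to be called. All 10 comparisons share the 4 control libraries. The labels call the replicates biological duplicates. Same-numbered replicates deviated together in all 6 pairs of knockouts (r of log2 levels from 0.37 to 0.50) and in 28 of all 136 pairs of groups. Over all pairs r reached 0.66. It reached 0.57 among the control and DDX17 deletion hgRNAs and 0.52 among the control and HDAC7 deletion hgRNAs. This is a hint from the data and not the labels. A replicate block within the knockouts was added after the data were seen. Both fits were also run on simulated data, with a fixed spread between replicates for genes and counting error only for events. Neither setting was taken from the replicate spread of these libraries, so no result here rests on those runs.

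Members, gene lists and tests were chosen with earlier results of these data known. Named events were those called or 10 points from controls, those with the widest range of group means, and the last exon junctions. Named pathway genes were those called in the set calling most of them or in at least 4 sets, and the pathway member called in the DDX17 knockout and SRSF1 were added after their values were seen. Sequences came from GENCODE v29 transcripts and, for the guide, from the labels. Amino acid sequences were not used here. Alternatives covered scaling, filters, weights, GC content and length, control choice, replicate block, read minimum, pseudocount and left-out libraries.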

Additional observations from a re-analysis of the deposited data

Results flagged for a closer look

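In a set of 4 libraries, the highest or lowest was singled out when its gap to the nearest other library, as a share of the set's range, exceeded Dixon's 95% critical value. Of 48 such sets tested, 7 were marked, and chance marks about 1 in 20. MKNK2 in DDX17 deletion hgRNA 1 replicate 2 stood at 167 CPM, above the other 3 libraries of its set. That library is the shallowest of the series. MKNK2 in FNBP4 PTC exon deletion hgRNA 3 replicate 1 stood at 185 CPM. Retention of the 2779-base MKNK1 intron stood apart in control hgRNA 1 replicate 2 (15.4%), in DDX5 deletion hgRNA 1 replicate 2 (3.75%), in HDAC7 deletion hgRNA 1 replicate 1 (5.88%) and in FNBP4 PTC exon deletion hgRNA 4 replicate 1 (21.9%), on as few as 24 reads per library. Retention of the 83-base MKNK2 intron was 9.0% in HDAC7 deletion hgRNA 1 replicate 2.

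Of 15 contrasts between edits of the same gene, covering both levels and the MKNK2 last exon, 7 passed limma's test of the difference itself. MKNK1 differed by -0.56 and MKNK2 by 0.47 between the FNBP4 PTC exon and intron deletions, and by -0.68 and 0.65 between the FNBP4 PTC exon deletion and the FNBP4 knockout. MKNK1 differed by 0.66 between the DDX5 deletion and the DDX5 knockout. Between the DDX17 deletion and the DDX17 knockout, MKNK2's level differed by -0.76 and its last exon log2 ratio by 2.37.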

How the results depend on the processing

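Of 86 results with alternatives, 67 kept direction and side of the threshold in all that were run. For MKNK1 in the DDX5 deletion the value was 0.34 against control hgRNA 2 only, and 0.35 to 0.52 with 1 library left out, past the threshold only without control hgRNA 1 replicate 1. For MKNK2 in the HNRNPD deletion it was 0.51 against control hgRNA 1 only, 0.36 with the GC and length trend removed, and 0.47 to 0.64 with 1 library left out. Removing that trend gave MKNK2 0.57 in the DDX5 knockout and 0.45 in the set labelled HDAC7 knockout, both then past the threshold, and turned the uncalled values of MKNK2 to 0.16 in the DDX5 deletion and 0.20 in the FNBP4 knockout. The cause was not tested. The last exon value in the DDX17 knockout was -2.74 with only that comparison's libraries (limma adjusted p = 0.346), and -2.94 to -2.54 with 1 library left out. The fit with only that comparison's libraries had fewer samples and took its spread from them alone. Which of these raised the adjusted p was not tested. The related intron value of -2.21 passed at a read minimum of 50, where fewer events were tested.

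Other values that changed sign passed no threshold. MKNK1 in the HDAC7 deletion was 0.046 and in the set labelled HDAC7 knockout 0.0037 against control hgRNA 1 only, and in the DDX17 knockout it was -0.015 against control hgRNA 2 only. With 1 library left out, MKNK2 in the DDX17 deletion ran from -0.015 to 0.28, and MKNK1 from -0.22 to 0.096 in the HDAC7 deletion, from -0.19 to 0.35 in the DDX17 knockout and from -0.26 to 0.060 in the set labelled HDAC7 knockout. The last exon ratio ran from -0.11 to 0.25 in the DDX5 deletion, from -0.22 to 0.14 in the DDX5 knockout and from -1.07 to 0.21 in the FNBP4 knockout. In the DDX17 deletion the MKNK1 74-base exon ran from -0.015 to 0.66. In the FNBP4 knockout, MKNK2 intron 3 ran from -0.31 to 0.16 and the related last intron from -1.19 to 0.045.

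Over all groups, same-numbered replicates deviated together in 28 of 136 pairs (r over 0.1), and r reached 0.66. A replicate block over all groups changed no call of either gene, for example 0.89 for MKNK2 in the DDX17 knockout (adjusted p 0.000636) and -2.74 for its last exon (adjusted p 0.00425). Among the knockouts, 6 of 6 pairs deviated together. A replicate block within the knockouts, chosen after seeing the data, brought MKNK2 in the DDX5 deletion against the DDX5 knockout past the threshold (-0.41, adjusted p 0.0487) and the related last intron in the DDX17 knockout (-2.21, adjusted p 0.0335), and changed no other call. A minimum of 20 reads for the last exon shares removed no library, the lowest having 63. Depth limits MKNK1 most, at 137 to 325 reads per library.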
